A study of Mus musculus with 17 samples.

Results

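The 44 genes described here encode the machinery that copies DNA and the enzymes that supply its building blocks. They were taken from a fixed list of origin licensing, replication fork and deoxynucleotide synthesis genes, and all 44 of the 44 listed genes were measured, among 19938 genes with a feature of their own on the array. Where a gene had several features, the one with the highest mean was used, which applied to 2 members, Pcna and Tk1. The arrays were Affymetrix Mouse Gene 1.0 ST, and each of the 17 arrays measured total RNA of one sorted CD11b+ population. The cells came from spleens, pooled over female mice of the BALB/c strain. CD11b marks myeloid cells, and antibodies to Ly-6C and Ly-6G parted them into 2 subsets. Monocytic cells (Mo) carried much Ly-6C and little Ly-6G, and polymorphonuclear or granulocytic cells (PMN) the reverse. The labels call both subsets myeloid-derived suppressor cells (MDSCs), immature myeloid cells named for their ability to restrain T cells. Each subset came from naive mice without tumor, and from mice given 100000 Her-2/CT26 cells under the skin 3 weeks or 6 weeks earlier. CT26 is a colon carcinoma line of BALB/c origin, so the tumors grew in immunocompetent mice of the same strain. The Mo groups held 3 arrays each, and the PMN groups held 4 naive, 2 early (3 week) and 2 late (6 week) arrays. The study asked what changes in the 2 subsets as tumors grow. The labels leave unsaid whether each replicate had its own pool of spleens. The p-values therefore weigh a change only against array-to-array spread, possibly technical, and the small number of arrays limits the precision.

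Before a cell can copy its genome, the origin recognition complex with Cdc6 and Cdt1 loads the Mcm helicase onto DNA, a step called licensing. Cdc45 and the GINS complex then switch the helicase on, primase and the DNA polymerases build the new strands, and the sliding clamp Pcna keeps the polymerases on the template. Most of these genes are controlled by E2F transcription factors and are transcribed around the entry into S phase, and mature neutrophils and blood monocytes are cells that have largely left the cell cycle.

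The sequence in front of the start site was read for the members that RefSeq's table of promoters (build GRCm38.p6) holds, which was 37 of 44. Each window ran from 250 bases before a start to 50 bases after it and was searched on both strands, and a gene with several starts in the table was counted as holding a motif if any of its windows did. The letters TTTCCCGC, TTTCGCGC, TTTGCCGC and TTTGGCGC, which are forms of the E2F recognition sequence, were found for 15 of the 37 members (40.5%), against 2.60% of the 26994 genes with a window. The box CCAAT, read by NF-Y, was found for 23 members (62.2% against 41.0%), and GGGCGG, read by Sp1, for 26 (70.3% against 38.2%). The letters TTTGAA, the core of the element known from genes of late cell cycle phases, were found for 5 members (13.5% against 20.2%). These matches are descriptions of letters in a window, and no binding was measured.

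The 250 bases before the start of Mcm6 and of Rrm2 are shown because they are the members with the largest change of the licensing role and of all roles, and because they differ in these letters. Capitals mark the E2F letters and CCAAT on either strand, so that CCAAT on the opposite strand reads ATTGG. The Mcm6 window is chr1:128359706-128359955 on the minus strand, and it holds 3 matches to the E2F letters, of which 2 overlap, and 2 CCAAT boxes. The Rrm2 window is chr12:24708004-24708253 on the plus strand, and it holds none of the E2F letters and 1 CCAAT box.
Mcm6: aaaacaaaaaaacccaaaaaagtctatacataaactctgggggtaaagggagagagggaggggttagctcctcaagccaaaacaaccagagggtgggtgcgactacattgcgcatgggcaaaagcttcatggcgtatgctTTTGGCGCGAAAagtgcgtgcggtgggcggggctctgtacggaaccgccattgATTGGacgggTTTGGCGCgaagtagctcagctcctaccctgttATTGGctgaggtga
Rrm2: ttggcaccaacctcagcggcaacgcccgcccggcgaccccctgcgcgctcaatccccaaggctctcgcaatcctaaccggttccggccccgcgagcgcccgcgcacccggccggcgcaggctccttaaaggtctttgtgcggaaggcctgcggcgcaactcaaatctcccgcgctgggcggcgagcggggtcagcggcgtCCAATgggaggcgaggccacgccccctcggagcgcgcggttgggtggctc

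Short stretches around the E2F letters of 6 further members show how the same core recurs in genes of different roles, with the matching letters in capitals and each sequence read along its gene. They come from Mcm5 (chr8:75109346-75109373, plus strand), Mcm7 (chr5:138172031-138172058, minus strand), Cdc6 (chr11:98908003-98908030, plus strand), Orc1 (chr4:108579417-108579444, plus strand), Pola1 (chrX:93632276-93632303, minus strand) and Uhrf1 (chr17:56304118-56304145, plus strand).
Mcm5: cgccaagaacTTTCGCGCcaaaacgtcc
Mcm7: atttcgaaccGCGGGAAAcagggtgtcc
Cdc6: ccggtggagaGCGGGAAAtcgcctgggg
Orc1: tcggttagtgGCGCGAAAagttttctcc
Pola1: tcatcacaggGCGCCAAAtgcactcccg
Uhrf1: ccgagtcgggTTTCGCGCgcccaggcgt

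The deposited values were put on a log2 scale, so a difference of 1 is a doubling of intensity. The Mo and PMN arrays appear to have been normalized apart, because any pair of Mo arrays shared a median of 942.5 exact values, any PMN pair 251 and any pair across the subsets 146. Levels are therefore set side by side only within a subset, and the subsets are compared by their changes. A receptor typical of each subset was high in its arrays, which alone does not measure purity. Ccr2, the chemokine receptor of inflammatory monocytes, lay between 12.06 and 12.45 in the Mo arrays. Cxcr2, the chemokine receptor of neutrophils, lay between 12.44 and 12.70 in the PMN arrays. One Mo array stood apart in a granulocyte gene, since Ly6g reached 8.95 in late replicate 2, while the other late Mo arrays had 6.56 and 6.43 and the naive ones at most 6.18. As a reference for background, the 95th percentile of 1194 olfactory and vomeronasal receptor genes, which these cells should not use, was 6.87 in Mo and 7.09 in PMN. The mean of 27 members lay above it in naive Mo cells, of 30 at 3 weeks and of 42 at 6 weeks, where Orc1 and Gmnn did not. In PMN cells the counts were 12, 13 and 24 of 44. Marker genes of other cells passed the reference too. In PMN cells these were 8 of 9 B cell genes in naive and 3 week cells and 3 at 6 weeks, and 5 of 8 monocyte genes at every stage. In Mo cells they were 5 of 10 neutrophil genes in naive cells, 4 at 3 weeks and 7 at 6 weeks.

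In Mo cells nearly the whole list rose between 3 and 6 weeks. At 6 weeks, 44 of 44 members were higher than in naive Mo cells (limma, Benjamini-Hochberg adjusted p under 0.05 over all genes), while 21.8% of all genes tested were called higher. The median change of the members was 1.38 on the log2 scale, beside -0.09 for all genes. In 43 members the 3 late arrays lay above the 3 naive arrays, as they did for 23.7% of all genes, and Gins2 was the member whose groups overlapped. At 3 weeks, Rfc2 alone was called higher than in naive cells, among 5.20% of all genes, and 11 members had an unadjusted p under 0.05. Against 3 weeks, 43 members were higher at 6 weeks, among 4.38% of all genes, with a median change of 1.30. Each array holds RNA of many cells, so a larger share of cells that express a gene and more of its RNA per cell cannot be told apart.

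**Figure D1:**
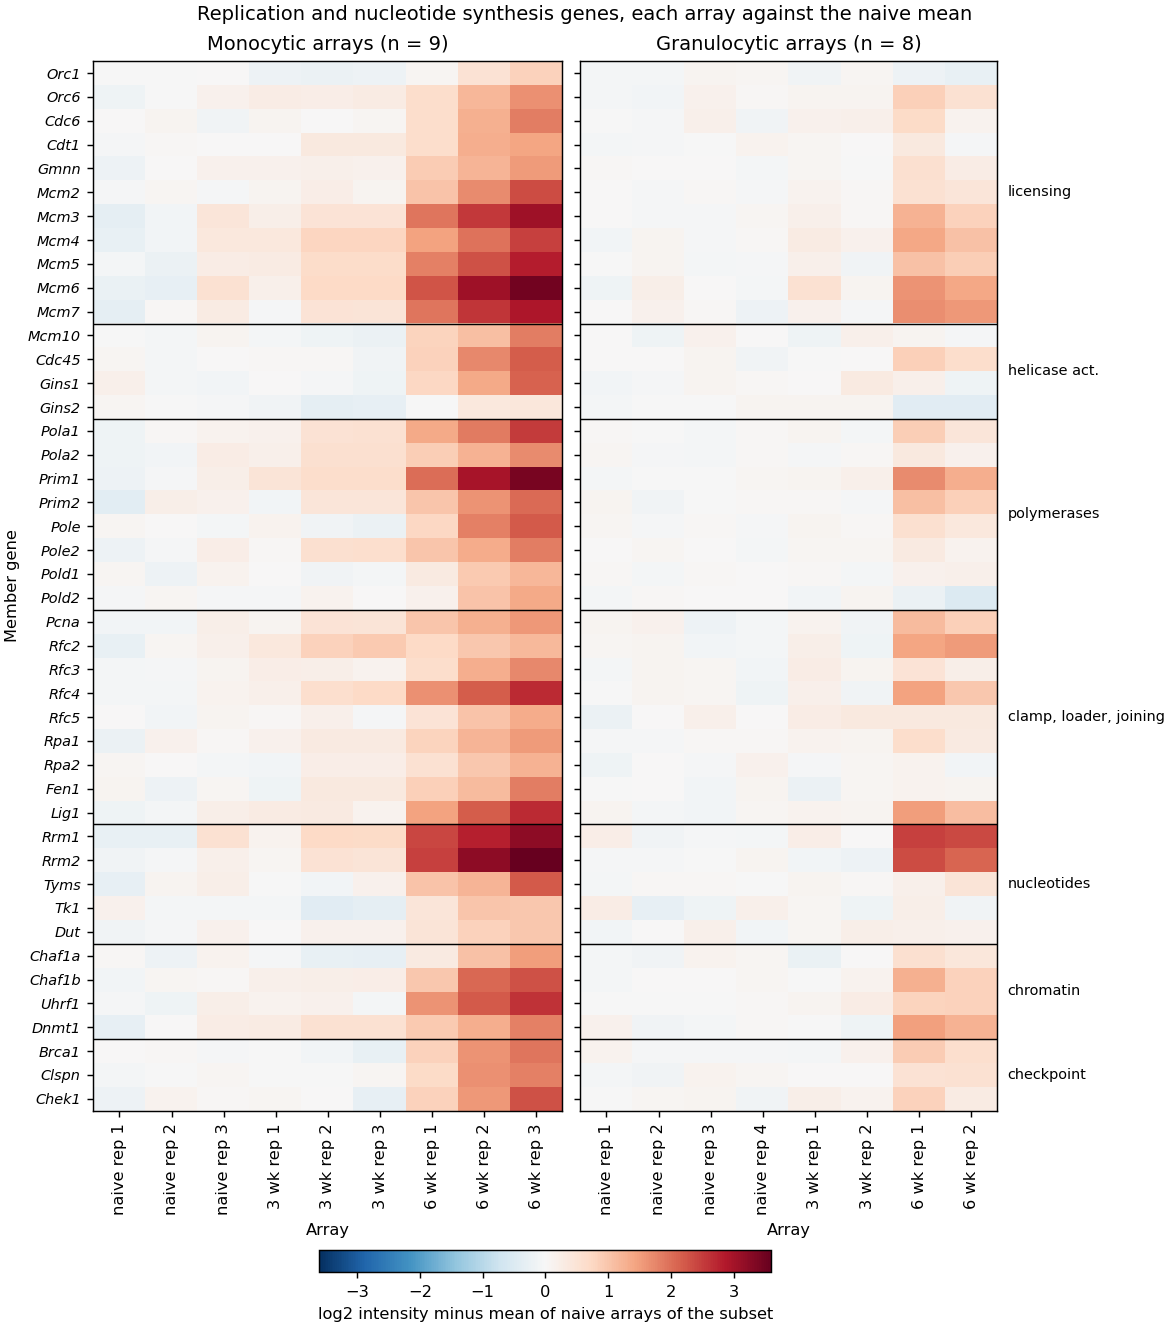
Log2 intensity of the 44 members (rows, grouped by role) in every array (columns), minus the mean of the naive arrays of the same subset; red is higher and blue lower. The 3 late Mo arrays are the reddest columns, palest in replicate 1, and the 2 late PMN arrays show a partial rise led by Rrm1 and Rrm2.

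In PMN cells about as many members rose as did not. At 6 weeks 23 members were higher than in naive PMN cells, where 25.5% of all genes were called higher, and 1 member, Gins2, was lower, where 40.0% of all genes were called lower. The median change of the members was 0.51, beside -0.18 for all genes. At 3 weeks no PMN member was called by limma and none had an unadjusted p under 0.05, and 0.00% of all genes were called in either direction, with 374 genes at an unadjusted p under 0.05. Against 3 weeks, 22 members were higher (23.7% of all genes) and Gins2 was lower (34.9%). Much of the PMN signal lay near the background reference: with every value below the reference raised to it, 10 members were called higher, among 19.1% of all genes, and 1 lower, among 5.74%. The members' share of rises then lay near that of all genes. Those 10 were Mcm5, Mcm6, Mcm7, Pcna, Rfc2, Lig1, Rrm1, Rrm2, Uhrf1 and Dnmt1, and every other PMN rise at 6 weeks versus naive lost its call.

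**Figure D2:**
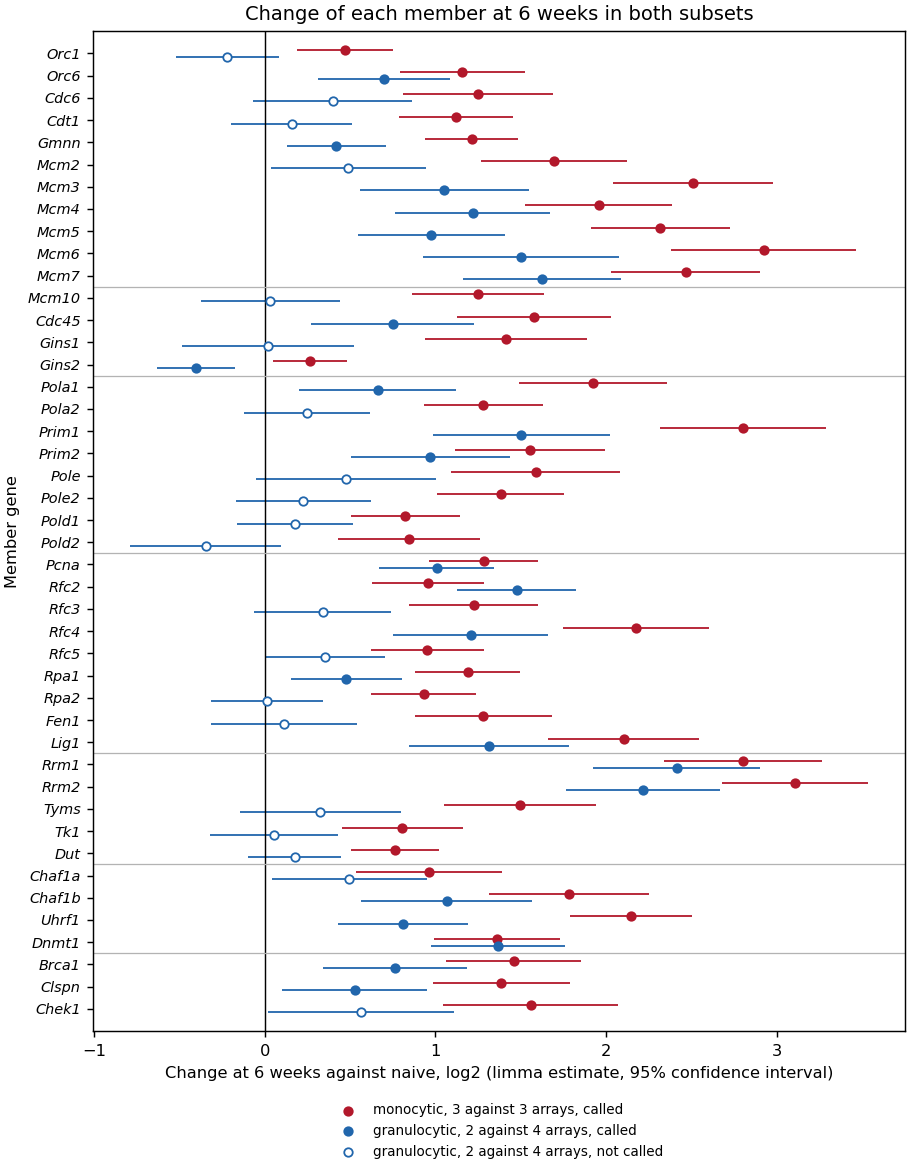
Change of each member at 6 weeks against naive cells, on the log2 scale, in Mo (red) and PMN cells (blue), as the limma estimate with its 95% confidence interval; filled points passed the adjusted threshold and open points did not. All 44 Mo points are filled and lie to the right of 0, while 20 PMN points are open and the filled PMN point of Gins2 lies to the left of 0.

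Deoxynucleotide synthesis held the largest change of the list in each subset. Rrm2 (feature 10394978, chr12:24708254-24714146) encodes the small subunit of ribonucleotide reductase, the enzyme that turns ribonucleotides into deoxynucleotides and limits their supply. In Mo cells Rrm2 was 7.21, 7.31 and 7.52 in the naive arrays, 7.43, 7.87 and 7.81 at 3 weeks, and 9.82, 10.56 and 10.99 at 6 weeks. The naive and 3 week arrays overlapped, and each late array lay far above both. The change at 6 weeks was 3.11 ± 0.20 (SE, 3 against 3 arrays), or 8.62-fold, with a limma adjusted p of 5.07e-08. In PMN cells Rrm2 was 6.89, 6.89, 6.89 and 7.01 in the naive arrays, 6.82 and 6.75 at 3 weeks, and 9.27 and 9.01 at 6 weeks. The naive and 3 week PMN arrays lay under the background reference and the late ones well above it, a change of 2.22 ± 0.21 (adjusted p 4.21e-07 by limma). The Mo change exceeded the PMN change by 0.89 ± 0.29 (adjusted p 0.0454), a call lost with values raised to the background reference (adjusted p 0.062).

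Rrm1 (feature 10555695, chr7:102441695-102469771) encodes the large subunit of the same enzyme. Its Mo levels were 7.71, 7.73 and 8.53 in naive cells, 8.12, 8.71 and 8.69 at 3 weeks, and 10.39, 10.78 and 11.20 at 6 weeks. Its PMN levels were 7.10, 6.75, 6.85 and 6.81 in naive cells, 7.10 and 6.89 at 3 weeks, and 9.33 and 9.25 at 6 weeks. In both subsets the late arrays were apart from all earlier ones, while 3 week and naive arrays overlapped. The 6 week change was 2.80 ± 0.22 in Mo and 2.41 ± 0.23 in PMN cells (limma adjusted p 1.97e-07 and 4.08e-07), the largest PMN change of the 44 members. The difference between these changes, 0.39, was not called, and its 95% confidence interval ran from -0.29 to 1.06.

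The other 3 genes of nucleotide supply rose in Mo cells and were not called in PMN cells. Tyms, thymidylate synthase, which makes dTMP from dUMP, rose by 1.49 ± 0.21 in Mo cells at 6 weeks and had a PMN change of 0.33 that was not called. Tk1, the salvage kinase of thymidine, rose by 0.81 in Mo cells against 0.05 in PMN cells, and Dut, which removes dUTP, rose by 0.76 against 0.17. The Mo change exceeded the PMN change in each of these 3 genes (differences of 1.17, 0.75 and 0.59 with limma adjusted p of 0.0141, 0.0419 and 0.0293). With values raised to the background reference the difference stayed called for Tyms (limma adjusted p 0.0157). It was lost for Tk1 and Dut (0.102 and 0.205). The PMN means of Tyms and Dut lay under the reference at every stage, which limits what their PMN changes can show. The second feature of Tk1 lay below the one used in every Mo array, with 7.32, 7.32 and 6.92 in naive and 7.45, 8.18 and 8.16 in late Mo cells.

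At 6 weeks 11 of the 11 licensing genes were up in Mo cells (median change 1.69) and 7 in PMN cells (median over the 11 of 0.70). Here and for the roles below, the shares of all genes called higher were 21.8% in Mo and 25.5% in PMN cells. The 6 genes of the Mcm2-7 ring, the core of the replicative helicase, had the largest Mo changes of the role. Mcm6 (feature 10357436, chr1:128331575-128359705) was 6.98, 6.92 and 7.76 in naive Mo cells, 7.40, 7.93 and 7.93 at 3 weeks, and 9.49, 10.26 and 10.68 at 6 weeks. The late arrays stood clear of the others, which overlapped. The change was 2.92 ± 0.26 (7.59-fold, limma adjusted p 5.98e-07). In PMN cells Mcm6 was 6.53, 6.91, 6.69 and 6.60 in naive cells, 7.22 and 6.79 at 3 weeks, and 8.29 and 8.07 at 6 weeks. Both late arrays were highest, with a change of 1.50 ± 0.27 (adjusted p 0.000238), and the Mo change was larger by 1.42 ± 0.37 (adjusted p 0.0137).

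Mcm3 (feature 10353420, chr1:20802966-20820312), another ring subunit, was 7.25, 7.48 and 8.001 in naive Mo cells, 7.79, 8.08 and 8.07 at 3 weeks, and 9.49, 10.13 and 10.63 at 6 weeks. In PMN cells it was 6.65, 6.61, 6.60 and 6.72, then 6.82 and 6.67, then 7.91 and 7.48. The late arrays were the highest of their subset in both. The changes of 2.51 ± 0.22 and 1.05 ± 0.23 (limma adjusted p 6.3e-07 and 0.00123) differed by 1.46 (adjusted p 0.00463), the largest subset difference of the list at 6 weeks against naive cells. The PMN call of Mcm3 was lost with values raised to the background reference (0.61, adjusted p 0.154).

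The other ring genes rose in Mo cells by 1.69 for Mcm2, 1.96 for Mcm4, 2.32 for Mcm5 and 2.47 for Mcm7. In PMN cells Mcm4, Mcm5 and Mcm7 rose by 1.22, 0.98 and 1.62, and Mcm2 had a change of 0.49 that just missed the threshold (limma adjusted p 0.0535). Loading factors had smaller Mo changes than the ring they load. Cdc6 and Cdt1 rose by 1.25 and 1.12 in Mo cells, and neither was called in PMN cells (0.40 and 0.16). Gmnn, geminin, which blocks Cdt1, rose by 1.21 in Mo and 0.42 in PMN cells. Its Mo mean stayed under the background reference throughout, and its call was lost in both subsets with values raised to that reference. Of the origin recognition genes, Orc6 rose by 1.16 in Mo and 0.70 in PMN cells, and Orc1 rose by 0.47 in Mo cells, also below the reference, with a PMN change of -0.22 that was not called.

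**Figure D3:**
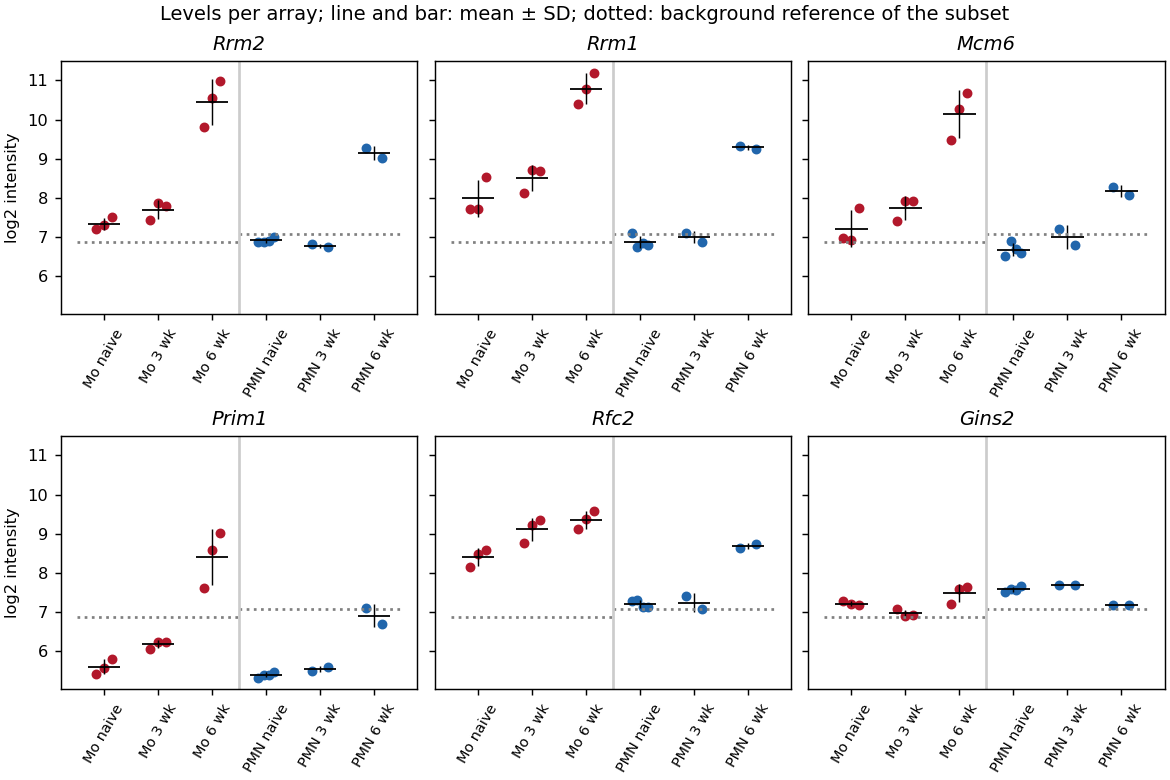
Log2 intensity of 6 members in every array by group, with Mo arrays in red and PMN arrays in blue; the line and bar give the mean and SD of a group, and the dotted lines the background reference of each subset (6.87 in Mo, 7.09 in PMN). Rrm2, Rrm1 and Mcm6 step up at 6 weeks in both subsets, Rfc2 is already up in Mo cells at 3 weeks, and Gins2 rises in Mo and falls in PMN cells. The late PMN arrays of Prim1 lie on either side of the reference.

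The 4 genes that activate the loaded helicase divided in PMN cells. Cdc45 (feature 10438378, chr16:18780447-18811972), which binds the Mcm ring to form the active helicase, was 7.26, 7.11 and 7.20 in naive Mo cells, 7.23, 7.22 and 7.07 at 3 weeks, and 8.01, 8.93 and 9.36 at 6 weeks. Its PMN arrays read 7.19, 7.20, 7.29 and 7.07, then 7.18 and 7.21, then 8.06 and 7.82. Naive and 3 week arrays were level, and the late arrays lay above them in both subsets. The changes were 1.58 ± 0.21 in Mo and 0.75 ± 0.23 in PMN cells (limma adjusted p 5.35e-05 and 0.00909), and their difference of 0.83 was not called (95% confidence interval 0.17 to 1.49, adjusted p 0.0809).

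Gins1 (feature 10476989, chr2:150909556-150931280), a subunit of the GINS complex, was 6.48, 6.24 and 6.22 in naive Mo cells, 6.32, 6.26 and 6.17 at 3 weeks, and 7.05, 7.68 and 8.45 at 6 weeks. The PMN values were 5.67, 5.74, 5.86 and 5.82, then 5.78 and 6.09, then 5.95 and 5.62, all under the background reference. The late Mo arrays stood clear of the rest, and the late PMN arrays lay around the naive ones. Gins1 rose by 1.41 ± 0.22 in Mo cells (limma adjusted p 0.000224), had a PMN change of 0.02 ± 0.24 that was not called, and differed between the subsets by 1.40 (adjusted p 0.00688). Mcm10, which helps to assemble the active helicase, had the same pattern, with 1.25 in Mo cells and 0.03 in PMN cells. The Gins1 difference was not called with values raised to the reference (0.85, limma adjusted p 0.154).

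Gins2 (feature 10582190, chr8:120581266-120589075), another GINS subunit, was the member called in opposite directions. In Mo cells it was 7.29, 7.20 and 7.17 in naive cells, 7.08, 6.90 and 6.94 at 3 weeks, and 7.22, 7.60 and 7.64 at 6 weeks. In PMN cells it was 7.52, 7.58, 7.58 and 7.68 in naive cells, 7.69 and 7.70 at 3 weeks, and 7.18 and 7.19 at 6 weeks. The late PMN arrays lay below all other PMN arrays, while late Mo replicate 1 overlapped the naive Mo arrays. Gins2 fell by 0.40 ± 0.11 in PMN cells (limma adjusted p 0.00443) and rose by 0.26 ± 0.10 in Mo cells (adjusted p 0.044). The difference was 0.67 (adjusted p 0.00494). Neither call was firm: the fall was lost when each array was centred on its median (-0.20, adjusted p 0.156), and the Mo rise was lost without Mo 6 week replicate 2 (adjusted p 0.165).

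In late Mo cells all 8 polymerase and primase genes were up (median 1.47). In PMN cells 3 rose, Prim1, Prim2 and Pola1 (median over the 8 of 0.36), where 25.5% of all genes were called higher. These 3, with Pola2, make up the complex that starts each new strand. With values raised to the background reference, none of the 3 stayed called in PMN cells. Prim1 (feature 10367076, chr10:128015215-128030030), the catalytic primase subunit, was 5.44, 5.58 and 5.81 in naive Mo cells, 6.07, 6.25 and 6.24 at 3 weeks, and 7.62, 8.59 and 9.03 at 6 weeks. The 3 Mo stages did not overlap, although the 3 week change (0.58, limma adjusted p 0.107) was not called. The 6 week change was 2.80 ± 0.23 (6.98-fold, limma adjusted p 3.08e-07). All naive and 3 week Mo arrays lay under the background reference, and with values raised to it the Mo change was 1.54. In PMN cells Prim1 was 5.33, 5.41, 5.40 and 5.49, then 5.50 and 5.60, then 7.12 and 6.71. Both late PMN arrays were highest, but only replicate 1 passed the background reference, so the PMN change of 1.50 ± 0.24 (adjusted p 8.98e-05) became 0.02 with values raised to it.

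Pola1 (feature 10605674, chrX:93304766-93632387), the catalytic subunit of DNA polymerase alpha, was 6.19, 6.39 and 6.48 in naive Mo cells, 6.52, 6.88 and 6.90 at 3 weeks, and 7.72, 8.23 and 8.88 at 6 weeks. Its PMN levels were 5.75, 5.68, 5.63 and 5.75, then 5.81 and 5.62, then 6.59 and 6.14, all under the reference. The late arrays were highest in each subset. The changes were 1.92 ± 0.21 and 0.66 ± 0.22 (limma adjusted p 4.79e-06 and 0.0143), and they differed by 1.26 (adjusted p 0.00726). The PMN call of Pola1 did not survive without PMN 6 week replicate 1 (adjusted p 0.194). Pola2, the accessory subunit of the same polymerase, rose by 1.28 in Mo cells and was not called in PMN cells (0.25).

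Pole and Pole2, of the leading strand polymerase epsilon, rose by 1.59 and 1.38 in Mo cells and were not called in PMN cells (0.47 and 0.23). Pold1 and Pold2, of the lagging strand polymerase delta, rose by 0.82 and 0.84 in Mo cells, the smallest Mo changes of the role. Their PMN changes of 0.18 and -0.35 were not called. The Mo change was larger than the PMN change in 6 of the 8 genes by the test of the difference, as called for 6.47% of all genes. Prim2 and Pold1 missed it (0.58 and 0.64, limma adjusted p 0.223 and 0.0542).

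The 9 genes of the clamp, its loader, the single-strand binding protein and the joining of Okazaki fragments all rose in Mo cells (median 1.23), and 5 rose in PMN cells (median over the 9 of 0.48). Pcna, the sliding clamp, rose by 1.28 in Mo and 1.01 in PMN cells, and its 2 features gave nearly the same values. The difference of 0.28 was not called (95% confidence interval -0.19 to 0.74). Rfc4 (feature 10438690, chr16:23113948-23127730), a subunit of the complex that loads Pcna, was 6.75, 6.76 and 6.97 in naive Mo cells, 7.01, 7.43 and 7.56 at 3 weeks, and 8.48, 9.005 and 9.51 at 6 weeks. PMN cells gave 5.61, 5.71, 5.68 and 5.47, then 5.79 and 5.50, then 7.07 and 6.58. The late arrays were apart in both subsets, and those of PMN cells were both under the reference, so that the PMN change was 0 with values raised to it. Rfc4 rose by 2.17 ± 0.20 in Mo and 1.21 ± 0.22 in PMN cells (limma adjusted p 1.27e-06 and 0.000208), with a difference of 0.97 (adjusted p 0.0314).

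Rfc2 (feature 10526217, chr5:134582690-134598328), another loader subunit, followed a time course of its own. In Mo cells it was 8.14, 8.49 and 8.60 in naive cells, 8.78, 9.23 and 9.35 at 3 weeks, and 9.12, 9.39 and 9.58 at 6 weeks. It was thus already apart from the naive arrays at 3 weeks (0.71 ± 0.16, limma adjusted p 0.0256), and the 3 and 6 week arrays overlapped (0.25, adjusted p 0.442). The corresponding PMN levels were 7.30, 7.31, 7.13 and 7.13, then 7.42 and 7.07, then 8.64 and 8.75, so the late arrays alone stood clear. Rfc2 rose by 1.45 between 3 and 6 weeks in PMN cells, and the Mo change was smaller than the PMN change, with a difference of -1.20 ± 0.25 (adjusted p 0.00177). Of the 44 members, Rfc2 was the one called smaller in Mo cells in that comparison, where 17.3% of all genes were called so. Against naive cells the 6 week changes were 0.96 in Mo and 1.48 in PMN cells, and their difference of -0.52 was not called (adjusted p 0.135). The 3 week call in Mo cells was the single one of the list, and it was lost on leaving out any 1 of naive replicates 1 and 2 or 3 week replicates 2 and 3.

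Lig1 (feature 10550102, chr7:13277175-13311426), the ligase that joins Okazaki fragments, was 7.17, 7.26 and 7.54 in naive Mo cells, 7.62, 7.66 and 7.47 at 3 weeks, and 8.77, 9.50 and 10.02 at 6 weeks. In PMN cells it was 7.13, 6.98, 6.95 and 7.12, then 7.17 and 7.16, then 8.56 and 8.16. The late arrays were the highest in both subsets, and Lig1 rose by 2.10 ± 0.21 and 1.31 ± 0.22 (limma adjusted p 2.39e-06 and 0.000129). Fen1, which trims the fragments before they are joined, rose by 1.28 in Mo cells and was not called in PMN cells (0.11). Rpa1 and Rpa2, of the protein that coats single-stranded DNA, rose by 1.19 and 0.93 in Mo cells, and in PMN cells Rpa1 rose by 0.48 and Rpa2 was not called (0.01). Rfc3 and Rfc5 rose by 1.23 and 0.95 in Mo cells and were not called in PMN cells (0.34 and 0.35).

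Among genes that restore chromatin behind the fork, Mo cells showed a rise in 4 of 4 (median 1.57) and PMN cells in 3 of 4 (median over the 4 of 0.94). Uhrf1 (feature 10446074, chr17:56303337-56323486) recognises newly copied, half-methylated DNA and brings in the methyltransferase Dnmt1. It was 7.08, 6.99 and 7.34 in naive Mo cells, 7.28, 7.31 and 7.07 at 3 weeks, and 8.76, 9.35 and 9.75 at 6 weeks. Its PMN arrays read 7.76, 7.76, 7.76 and 7.83, then 7.88 and 8.05, then 8.57 and 8.61. The late arrays lay above all others in both subsets. Uhrf1 rose by 2.15 ± 0.17 in Mo and 0.81 ± 0.18 in PMN cells (limma adjusted p 2.15e-07 and 0.0012), and the difference of 1.33 had the lowest adjusted p of the list (0.00131). Dnmt1 rose by 1.36 in Mo and 1.37 in PMN cells, a difference of -0.0033 with a 95% confidence interval of -0.54 to 0.54.

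Chaf1b (feature 10437040, chr16:93883900-93906115), a subunit of chromatin assembly factor 1, which places new histones, was 6.75, 6.91 and 6.90 in naive Mo cells, 7.03, 7.05 and 7.10 at 3 weeks, and 7.83, 8.92 and 9.16 at 6 weeks. The PMN values were 6.51, 6.59, 6.60 and 6.66, then 6.57 and 6.73, then 7.88 and 7.43. Late arrays were apart from all others, with changes of 1.78 ± 0.22 and 1.06 ± 0.24 (limma adjusted p 2.46e-05 and 0.00121). Chaf1a, the large subunit of the same factor, rose by 0.96 in Mo cells and narrowly missed the threshold in PMN cells (0.50, adjusted p 0.052).

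The 3 checkpoint and repair genes rose in Mo cells (median 1.46), and Brca1 and Clspn rose in PMN cells. Both of these PMN calls were lost with values raised to the background reference (changes of 0.09 and 0.05). Chek1 (feature 10592201, chr9:36708482-36726658), the kinase that holds the cell cycle when forks stall, was 5.84, 6.17 and 6.08 in naive Mo cells, 6.10, 6.05 and 5.73 at 3 weeks, and 6.86, 7.59 and 8.31 at 6 weeks. In PMN cells it was 6.21, 6.31, 6.32 and 6.11, then 6.44 and 6.36, then 7.07 and 6.53. The late arrays were highest in both subsets, yet late PMN replicate 2 was close to the 3 week arrays. Chek1 rose by 1.56 ± 0.24 in Mo cells (limma adjusted p 0.000187), and its PMN change of 0.56 ± 0.26 was not called (adjusted p 0.0638). With values raised to the background reference the Mo call was lost too (adjusted p 0.0531).

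Brca1 (feature 10391461, chr11:101488761-101551955), which acts in the repair of broken forks, was 6.35, 6.37 and 6.28 in naive Mo cells, 6.32, 6.23 and 6.08 at 3 weeks, and 7.16, 7.95 and 8.27 at 6 weeks. PMN cells gave 6.46, 6.32, 6.29 and 6.31, then 6.29 and 6.50, then 7.26 and 6.96. Late arrays were apart in both subsets, with changes of 1.46 ± 0.19 and 0.76 ± 0.20 (limma adjusted p 3.29e-05 and 0.00365). Clspn, claspin, which links stalled forks to Chek1, rose by 1.39 in Mo and 0.53 in PMN cells.

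Set against each other at 6 weeks versus naive, the Mo change was larger than the PMN change in 27 of 44 members, among 6.47% of all genes (17.5% were called either way), and smaller in none by limma, where Rfc2 alone had an unadjusted p under 0.05 in that direction (0.0344). The median difference was 0.86. Of the 44 members, 11 rose in both subsets with a larger Mo rise: Gmnn, Mcm3, Mcm5, Mcm6, Pola1, Prim1, Rfc4, Rpa1, Rrm2, Uhrf1 and Clspn. In 12 both subsets rose and the difference was not called, which does not show equal changes: Orc6, Mcm4, Mcm7, Cdc45, Prim2, Pcna, Rfc2, Lig1, Rrm1, Chaf1b, Dnmt1 and Brca1. In 15 the Mo rise was called, the PMN change was not, and the difference was: Orc1, Cdt1, Mcm2, Mcm10, Gins1, Pola2, Pole, Pole2, Pold2, Rfc3, Rpa2, Fen1, Tyms, Tk1 and Dut. Gins2 moved in opposite directions, and for Cdc6, Pold1, Rfc5, Chaf1a and Chek1 only the Mo change was called and the difference was not. At 3 weeks versus naive no difference was called in the members by limma, 3 had an unadjusted p under 0.05, and 0.00502% of all genes were called. Between 3 and 6 weeks 25 members had the larger change in Mo cells, among 11.9% of all genes, and Rfc2 the smaller.

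These counts of differences leaned on single arrays and on the scaling. Without PMN 6 week replicate 2 the 27 members became 9, among 2.82% of all genes, and without Mo 6 week replicate 1 they became 40, among 8.51%. With quantile normalization of all arrays together, 16 members were called larger and 1 smaller in Mo cells, among 6.63% and 11.5% of all genes. With values raised to the background reference, 19 were called larger, among 3.68% of all genes, and 16 of these were among the 27. Orc6, Mcm4 and Mcm7 were newly called, since raising cut their PMN changes to 0, 0.20 and 0.99. The difference of Rfc4 grew from 0.97 to 2.10 in the same way. Because raising removes PMN rises that lie under the reference, this count is no separate check that the Mo change is larger. For the change from 3 to 6 weeks, centring each array on its median left 4 members larger and 1 smaller in Mo cells, among 2.6% and 19.9% of all genes.

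The late Mo arrays differed from each other along the whole list. Replicate 1 was the lowest of the 3 in 44 of 44 members and replicate 3 the highest in 43. The gap between replicates 3 and 1 had a median of 1.03, from 0.42 for Gins2 to 1.48 for Pole. The median SD of the members over these arrays was 0.52, against 0.14 for all genes, and 0.16 for the members in naive Mo cells. Since limma used 1 spread per gene over the 6 groups, the SE printed for a Mo change at 6 weeks is smaller than these 3 arrays alone would give, and with the Mo arrays fitted alone 42 members were called, without Gins2 and Orc1. In late PMN cells replicate 1 lay above replicate 2 in 37 of 44 members, with a median gap of 0.23.

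Markers of other cells moved with the list, some up and some down. In the late Mo arrays the summed linear intensity of 11 genes of progenitors and early granulocytes, among them Mpo, Elane, Prtn3 and Ctsg, was 5722, 10686 and 14138 in replicates 1, 2 and 3, against 1211 to 1348 in naive Mo cells. Like the members, it was lowest in replicate 1 and highest in replicate 3. At 6 weeks 7 of these 11 genes rose in Mo cells, led by Mpo (4.53), and Kit, a defining stem and progenitor receptor, was not called (-0.01). The sum of 5 genes of cycling cells, Mki67, Top2a, Birc5, Ccna2 and Aurkb, was 4979, 7546 and 9198 in the same arrays, against 723 to 1481 in naive Mo cells. The sum of 9 erythroid genes was 4066, 6453 and 1262, lowest in the array where the members were highest, and 3 of the 9 rose. The sum of 10 neutrophil genes was 7472, 15749 and 6370, highest in replicate 2, against 2193 to 2750 in naive Mo cells. These genes did not move as 1: the means of 5 lay above the background reference in naive and of 7 in late Mo cells. In replicates 1 and 3 the highest were Mmp8 (log2 11.60 and 11.57) and Ngp (11.09 and 10.55). Cxcr2 (5.66 and 6.09) stayed under the reference there, and Csf3r (10.10 and 9.76) lay below its naive values (10.15 to 10.35). Markers of other classes fell in late Mo cells. The sum of 9 dendritic cell genes was 1464, 1404 and 994, against 3426 to 3525 in naive Mo cells, and 7 of the 9 fell, led by the class II gene H2-Aa (-3.73). Of 9 T and NK cell genes 7 fell, led by Gzma (-2.18), and of 9 B cell genes 6 fell. Of all genes, 21.8% were called higher and 24.4% lower in Mo cells at 6 weeks. Without late Mo replicate 2 and naive Mo replicate 1, the one highest in B cell genes, 41 members were called higher in Mo cells. This fit was added after seeing the data. The late arrays it kept had neutrophil sums of 7472 and 6370, above the naive range, so it does not test the part of other cells. The part of any of these markers in the result was not tested.

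**Figure D4:**
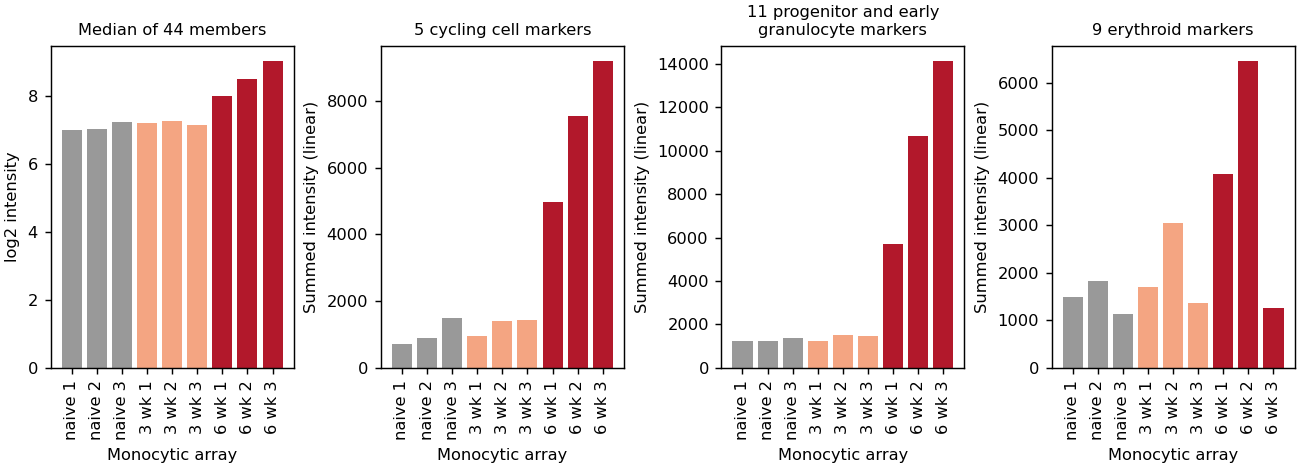
Bars for the 9 Mo arrays, in order of group and replicate, give from left to right the median log2 intensity of the 44 members and the summed linear intensities of 5 cycling cell, 11 progenitor and early granulocyte, and 9 erythroid marker genes; each axis starts at 0. In the 3 late arrays (dark red) the first 3 measures are lowest in replicate 1 and highest in replicate 3, while the erythroid sum is lowest in replicate 3.

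In PMN cells the same 11 progenitor and early granulocyte genes summed to 1815 and 2103 in the late arrays, against 1010 to 1101 in naive ones, and 7 rose and 1 fell. The 5 cycling genes all rose, from a sum of 659 to 667 in naive cells to 3571 and 4281 at 6 weeks. The neutrophil sum went from between 25706 and 27546 to 57128 and 60825. Not all of its 10 genes rose: Csf3r went from between 12.31 and 12.41 to 11.71 and 11.90 on the log2 scale. The naive and late PMN arrays overlapped in Cxcr2. The B cell sum went the other way, from 2850 to 3133 in naive cells to 1072 and 1092, and 9 of 9 B cell genes fell. Of 9 T and NK cell genes 6 fell and 1 rose, and of 9 dendritic cell genes 5 fell and 1 rose. In that comparison 25.5% of all genes were called higher and 40.0% lower. The part of these cells in the PMN results was not tested.

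Members with the E2F letters are set beside those without as a description. The median Mo change was 1.39 over the 15 members with the letters, from 0.47 for Orc1 to 2.92 for Mcm6, and 1.28 over the 22 without, from 0.76 for Dut to 3.11 for Rrm2. The median PMN change was 0.66 with the letters and 0.49 without, and 9 of 15 and 10 of 22 members rose. The most changed gene of the list, Rrm2, had none of these letters in the stretch printed above, and Orc1, whose site is among those printed, had the second smallest Mo change.

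Most replication factors outside the list also rose at 6 weeks. Of 48 such genes 46 were measured. In Mo cells at 6 weeks 39 rose and none fell by limma, where 21.8% of all genes were called higher. Of the 46, 41 had an unadjusted p under 0.05. The largest rises were those of Tipin (2.79), a fork protection factor, Hells (2.51), a chromatin remodeller, and Dbf4 (2.25), the activator of the kinase that fires origins. In PMN cells 31 of the 46 rose and 2 fell, where 25.5% of all genes were called higher and 40.0% lower. Dbf4 (2.15), the checkpoint adaptor Topbp1 (1.60) and Rfc1 (1.36), the large subunit of the clamp loader, rose most, and Atrip (-0.58) and Recql4 (-0.36) fell. The difference between the subsets was called for 9 of the 46, a share near the 17.5% of all genes called either way, with 7 larger in Mo cells, led by Hells and Tipin (1.51 each), and 2 smaller, Mcmbp (-0.87) and Dna2 (-0.59).

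Other nucleotide synthesis genes moved in both directions. Of 33 listed genes 31 were measured. In Mo cells at 6 weeks 21 rose and 2 fell, where 21.8% of all genes were called higher and 24.4% lower. Shmt2 (1.74) and Mthfd1 (1.48), of the folate cycle that supplies one-carbon units, and Prps1 (1.32), which makes the ribose phosphate donor, rose most, and Samhd1 and Cmpk2 fell (-0.71 each). Samhd1 breaks down deoxynucleotides. In PMN cells 7 of the 31 rose and 5 fell, where 25.5% of all genes were called higher and 40.0% lower, so neither share exceeded that of all genes. Among these 31, Adss (1.59), Cmpk1 (1.23) and Gmps (1.10) rose most, and Cad (-0.44), Shmt1 (-0.42) and Dctpp1 (-0.35) fell most. The difference was called for 21 of the 31, where 17.5% of all genes were called either way. In Mo cells 16 were larger, among 6.47% of all genes, led by Mthfd1 (1.61), Shmt2 (1.54) and Atic (1.29). Another 5 were smaller, a share near the 11% of all genes, led by Cmpk2 (-0.91), Cmpk1 (-0.83) and Adss (-0.75).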

How the data were processed

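The deposited values are linear intensities of 35557 features. The authors used RMA, per the submitters' processing notes, with no version given in the sources used here. Log2 values had been assumed; the values, from 9.76 to 32095, are linear and were put on log2. Features naming 1 gene gave 19938 genes, with the highest-mean feature kept. The members and lists were chosen with earlier results of these data known. One limma 3.58.1 fit (R 4.3.3) with a mean for each of 6 groups gave the changes, with Benjamini-Hochberg adjustment over all genes and a threshold of 0.05. The script was tested on simulated data: of genes changed 2-fold it called 92.5% in the Mo and 97.0% in the PMN comparison at 6 weeks, with 10 and 6 false calls among 19938 genes. That simulation gave each gene 1 spread over all groups. The members varied more in late than in naive Mo arrays (median SD 0.52 against 0.16), so these figures need not hold for them. All members were named, and the 2 largest Mo changes at 6 weeks of each role, with members called against their role, were described in full. Outside the list, the 3 largest rises and falls were named. Alternatives covered scaling, dim values, features, array weights, the variance prior, a fold threshold, the replicate block and each array left out. Promoters and gene positions are from RefSeq (GRCm38.p6), and all 44 members matched its symbols.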

Additional observations from a re-analysis of the deposited data

Results flagged for a closer look

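At 6 weeks against naive cells, 27 members changed more in Mo than in PMN cells by the test of the difference itself, among 6.47% of all genes. Among the members described in full, the Mo change exceeded the PMN change on the log2 scale by 1.42 for Mcm6, 1.46 for Mcm3, 1.40 for Gins1, 1.30 for Prim1, 1.26 for Pola1, 0.97 for Rfc4, 0.89 for Rrm2, 1.33 for Uhrf1 and 0.67 for Gins2. Of these, the differences of Gins1 and Rrm2 were not called with values raised to the background reference (limma adjusted p 0.154 and 0.062). From 3 to 6 weeks 25 members changed more in Mo cells, among 11.9% of all genes, and Rfc2 changed less, by -1.20, among 17.3%.

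For 4 of the 44 members a single naive PMN array lay apart from the other 3, measured against their narrow spread. It was replicate 4 for Gmnn (5.19, below the others), Rrm2 (7.01, above) and Uhrf1 (7.83, above), and replicate 1 for Brca1 (6.46, above). The gaps were small on the log2 scale: the other arrays of Uhrf1 lay at 7.76, and those of Gmnn at 5.27 to 5.28. Chance flags about 1 in 20 groups in this way.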

How the results depend on the processing

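In Mo cells at 6 weeks 40 to 44 members were called higher than in naive cells and 36 to 43 higher than at 3 weeks under every alternative run, and no PMN member was called at 3 weeks under any. The single Mo call at 3 weeks was not stable: 2 members were called with centring, 2 with dim genes left out, 31 with array weights (a fit that stopped before convergence, and called 76.1% of all genes), and 0 with joint quantile normalization, with the background floor, with Mo arrays alone or against a 1.2-fold threshold. Leaving out 1 array gave 0 to 11, with 7 without naive replicate 3 (12.6% of all genes), 11 without 3 week replicate 1 (44.7%) and 0 without any 1 of the other 4. In PMN cells at 6 weeks the 24 calls became 11 with the floor, where the share of all genes called either way went from 65.4% to 24.8%. From 3 to 6 weeks the 23 became 8 with the floor, 15 at 1.2-fold and 14 to 21 without 1 array, lowest without 6 week replicate 1.

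Of the differences between subsets at 6 weeks versus naive, the 27 calls became 17 with joint quantile normalization, 42 with array weights, 11 at 1.2-fold and 9 to 40 without 1 array, lowest without PMN 6 week replicate 2. From 3 to 6 weeks the 26 became 5 with centring, 14 with joint quantile normalization, 15 with the floor, 8 at 1.2-fold and 7 to 38 without 1 array, with 7 without PMN 6 week replicate 2, and 13 and 11 without PMN 3 week replicates 1 and 2. At 3 weeks versus naive the 0 became 14 with array weights (42.9% of all genes) and 0 to 1 without 1 array, with 1 without Mo 3 week replicate 1 (16.3%). Rfc5 in PMN cells from 3 to 6 weeks turned to -0.65 (limma adjusted p 0.00809), and the subset difference of Pcna to 0.68 (0.00772), with joint quantile normalization; the cause was not tested. For the differences at 6 weeks versus naive, 18.1% of all genes were called with joint quantile normalization and 34.3% with array weights. From 3 to 6 weeks 22.5% were called with centring, 25.7% with joint quantile normalization and 15.9% with the floor. Centring added 0.12 to every Mo and 0.20 to every PMN change at 6 weeks versus naive. It moved the share of called genes that were higher from 47.2% to 69.5% for Mo, and from 38.9% to 64.4% for PMN cells.

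Replicate numbers were not taken as pairs: deviations of same-numbered arrays correlated between -0.09 and 0.63 in Mo and between -0.46 and 0.02 in PMN cells. With the replicate block, 13 members were called in Mo cells at 3 weeks (26.6% of all genes), 43 at 6 weeks, 25 in PMN cells at 6 weeks, 1 difference at 3 weeks (5.15%), 27 at 6 weeks versus naive and 33 from 3 to 6 weeks. The dim level of many PMN members, near background, limits what their changes can show.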
